A study of Arabidopsis thaliana with 8 samples.

Results

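Transcripts of 10 jasmonate synthesis genes were followed in Arabidopsis thaliana seedlings that overexpress WIN1, whose AP2/ERF-type product is known to activate cuticle genes. The genes were chosen by locus, as LOX2, LOX3, LOX4, LOX6, AOS, AOC1, AOC2, AOC3, OPR3 and JAR1. They are 10 of the 25665 loci named on the array, each is read by 1 probe, and all 10 were among the 20441 genes tested.

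Whole seedlings of the Columbia-0 ecotype, 2 weeks old, were sampled from 2 groups of 4. One group is labelled 35S:WIN1, with the genotype 35S:WIN1:NOS, in which the strong viral 35S promoter drives the gene in most tissues. The other is titled vector control, while its genotype field reads wild type. Both were raised at 23 degrees Celsius under 16 h of light a day, on agar medium containing 1% sucrose, with many seedlings to a plate and several harvested together for each sample. Nothing in the labels says that samples came from separate plates or from more than 1 transgenic line, so the p-values measure only the spread from sample to sample, which may be technical. Every sample had a 1-colour array of its own. The arrays of each group shared a slide, 1 slide per group, so genotype and slide cannot be told apart here.

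Levels are log2 of the processed signal relative to the 75th percentile of the same array, so that 0 is the signal of a fairly bright probe and negative values are dimmer, and levels of different probes are not set against each other. In 35S:WIN1 the 75th percentile was between 996.7 and 2490, with replicates 1 and 2 the dimmest arrays, and in the control between 1790 and 2354. WIN1 stood at 4.85 ± 0.83 (SD, n = 4) in 35S:WIN1 and at -8.21 ± 1.48 (SD, n = 4) in the control, where 1 of 4 arrays read it well above background. Over all genes, 3078 were higher and 4138 lower in 35S:WIN1 at an adjusted p under 0.05 (limma, Benjamini-Hochberg), or 35.3% of those tested, 15.1% higher and 20.2% lower. Of the genes called, 42.7% were higher, against 30.2% on the deposited values, where arrays keep the brightness they were scanned with, and 2.29% on a scale set by the spike-in RNAs. In whole seedlings, fewer cells of a type and less RNA per cell cannot be told apart.

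Jasmonates are lipid hormones of wounding, defence and flower development. In the chloroplast a lipoxygenase (LOX) adds oxygen to linolenic acid, allene oxide synthase (AOS) and allene oxide cyclase (AOC) turn the product into the cyclic precursor OPDA, and in the peroxisome OPR3 reduces OPDA before beta-oxidation shortens its chain to jasmonic acid. JAR1 then joins jasmonic acid to isoleucine, and the conjugate is the form that the receptor COI1 binds together with JAZ repressors. Most genes of the route are themselves induced by jasmonate, and the lipoxygenase and cyclase steps are each encoded by several genes.

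Of the 10 genes, 6 were higher in 35S:WIN1 than in the control and none was lower, against 15.1% of all genes higher. LOX3, LOX4, LOX6, AOS, AOC3 and OPR3 rose relative to the 75th percentile, while LOX2, AOC1, AOC2 and JAR1 did not pass the test. Genes that passed as higher and genes that did not pass were found inside the lipoxygenase and the cyclase step alike. Not passing does not show that a gene stayed level, and the intervals of LOX2, AOC1 and AOC2 given below are wide. The groups did not overlap for 4 of the 10 genes, all higher, where this held for 35.7% of all genes and for 15.4% with 35S:WIN1 higher. The median difference of the 10 genes was 0.80 on the log2 scale, beside -0.04 for all genes. All 6 rises depend on the scale, since none passed on the spike-in scale described further on. On that scale LOX6, AOS and OPR3 lay below 0, and LOX3, LOX4 and AOC3 above. Only LOX4 and AOC3 passed on the deposited values.

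**Figure D1:**
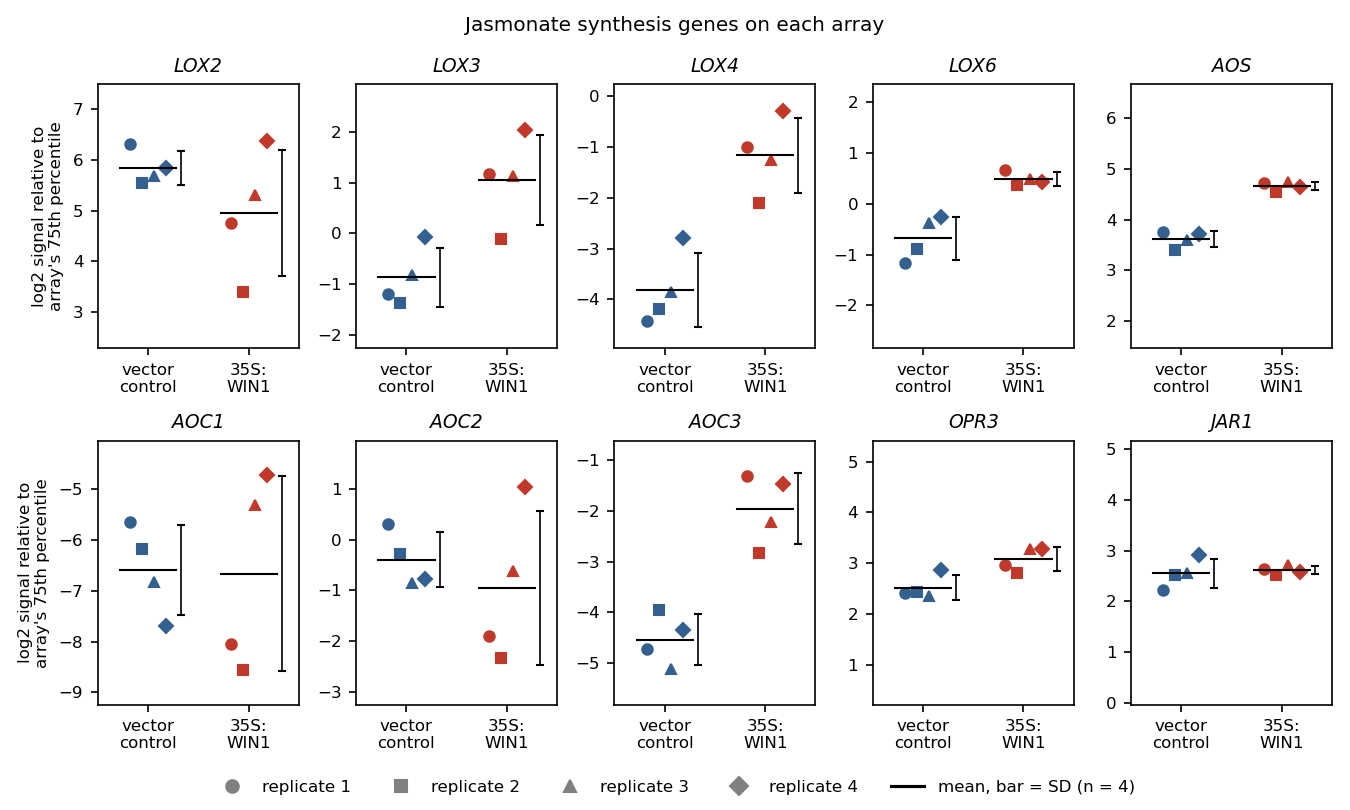
Levels of the 10 genes on each array, as log2 signal relative to the array's 75th percentile, with every panel spanning the same number of log2 units. Points are arrays, with one marker shape per replicate number, lines are group means and bars are SD with n = 4. The groups are apart for LOX4, LOX6, AOS and AOC3, and the 35S:WIN1 arrays spread widely for LOX2, AOC1 and AOC2, with replicates 1 and 2 low.

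The 4 lipoxygenase genes encode chloroplast enzymes that can start the route. LOX4 (AT1G72520), which in flowers acts together with LOX3 in male fertility, read -0.998, -2.10, -1.26 and -0.29 on 35S:WIN1 replicates 1 to 4 and -4.44, -4.20, -3.86 and -2.79 on control replicates 1 to 4. All 35S:WIN1 arrays lay above all control arrays. LOX4 rose 6.31-fold, a log2 difference of 2.66 with an SE of 0.45 (limma, adjusted p = 0.00346).

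LOX3 (AT1G17420), its partner in that role, read 1.17, -0.11, 1.13 and 2.04 in 35S:WIN1 and -1.20, -1.37, -0.83 and -0.06 in the control. Replicate 2 of 35S:WIN1 lay just below control replicate 4, the highest control array, and the other arrays did not cross. LOX3 rose 3.79-fold, a log2 difference of 1.92 with an SE of 0.46 (adjusted p = 0.0140).

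LOX6 (AT1G67560), known in Arabidopsis for the first, fast jasmonate made after wounding, read 0.68, 0.38, 0.49 and 0.42 in 35S:WIN1 and -1.17, -0.88, -0.38 and -0.27 in the control. The 35S:WIN1 arrays were close together and all above the control arrays, which spread more widely. LOX6 rose 2.24-fold, a log2 difference of 1.17 with an SE of 0.21 (adjusted p = 0.00400).

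LOX2 (AT3G45140), which in leaves makes much of the OPDA and jasmonate that follow wounding, went the other way on most arrays without passing the test. It read 4.75, 3.40, 5.30 and 6.38 in 35S:WIN1 and 6.32, 5.54, 5.69 and 5.83 on the control arrays. Replicates 1, 2 and 3 of 35S:WIN1 lay below every control array and replicate 4 above every one. LOX2 had a log2 difference of -0.89 with a 95% interval from -2.16 to 0.39 (adjusted p = 0.246), which spans 0.22 to 1.31 times the control level. Without 35S:WIN1 replicate 4 LOX2 was lower (log2 difference -1.36, adjusted p = 0.0394), and without the dimmest arrays, replicates 1 and 2, the difference was close to 0 at -0.0036 (adjusted p = 0.995).

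Whether genes of the same step changed unequally was asked with the ratio of 2 genes within each array. Scaling a whole array by a constant factor does not alter this ratio. Quantile normalization can, and the pairs were not run with it. A two-sided exact permutation test over the 8 samples compared 9 pairs. It cannot give a p below 0.0286, and p-values are given with Benjamini-Hochberg adjustment over the 9. After adjustment a pair could pass 0.05 only if at least 6 of the 9 reached that lowest p. Pairs that share a gene are not independent. The ratio of LOX2 to LOX4 changed by -3.55 on the log2 scale (SE 0.53), or 11.7-fold, that of LOX2 to LOX3 by -2.81 (SE 0.40), or 7.02-fold, and that of LOX2 to LOX6 by -2.05 (SE 0.70), or 4.15-fold. In all 3 the groups did not overlap (exact p = 0.0286, adjusted p = 0.0429 each). Relative to LOX2, transcripts of the other lipoxygenases were thus higher on all 4 arrays of 35S:WIN1, replicate 4 included. Without replicates 1 and 2 the 3 changes were -3.05, -2.45 and -1.13, in the same direction, with too few arrays left for a test at 0.05.

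Among the 3 lipoxygenases that rose, LOX4 changed more than LOX6, by 1.49 (SE 0.42, adjusted p = 0.0429), and more than LOX3, by a smaller 0.74 (SE 0.14, adjusted p = 0.0429), both by the same exact test. The ratio of LOX3 to LOX6 changed by 0.76 with an SE of 0.46 and did not pass (exact p = 0.171, adjusted p = 0.193). With normexp background correction the ratio of LOX3 to LOX4 moved to -0.28 (adjusted p = 0.229) and none of the 9 pairs passed. The 3 pairs with LOX2, and AOC2 with AOC3 among the cyclases, then stood at an adjusted p of 0.0514. Of the 9 pairs 5 still had the lowest p of the exact test, 0.0286, too few for any to pass after adjustment.

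**Figure D2:**
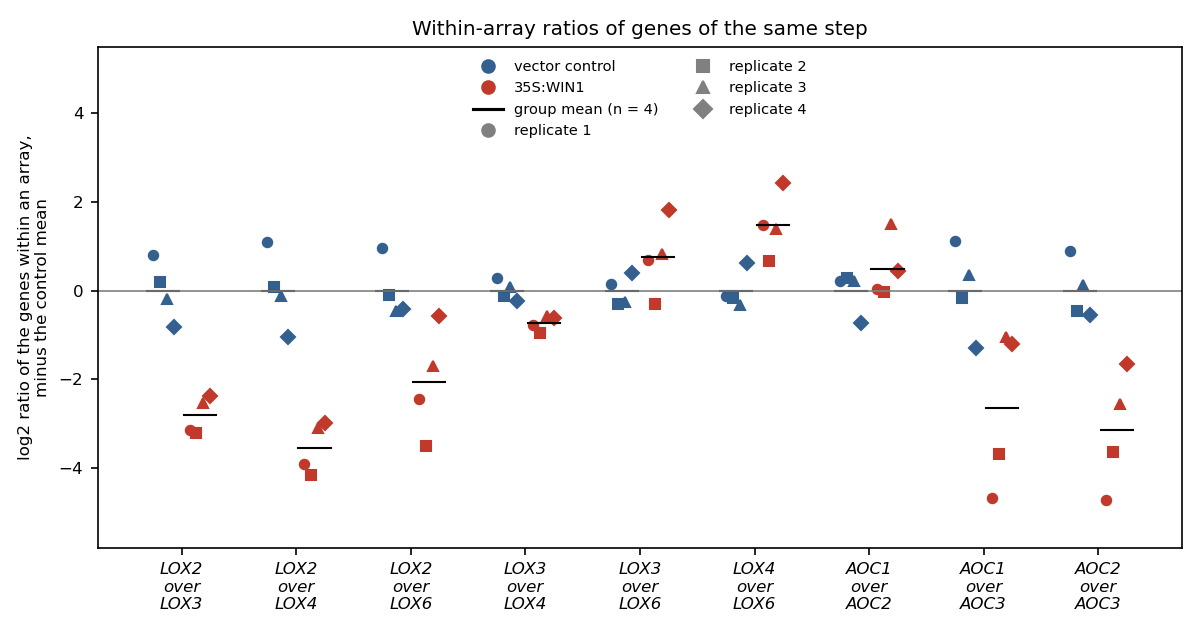
Within-array log2 ratio of 2 genes of the same step, minus the control mean of that ratio, for the 6 lipoxygenase and 3 cyclase pairs. Points are arrays, with marker shapes for replicate numbers, and black lines are group means with n = 4. The 35S:WIN1 arrays lie apart from the control arrays in 6 of the 9 pairs, namely the 3 with LOX2, LOX3 over LOX4, LOX4 over LOX6 and AOC2 over AOC3.

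AOS (AT5G42650), a single gene in Arabidopsis that commits the lipoxygenase product to the jasmonate branch, changed little from array to array. It read 4.72, 4.55, 4.74 and 4.64 in 35S:WIN1 and 3.76, 3.39, 3.60 and 3.72 in the control. The groups were clearly apart. AOS rose 2.06-fold, a log2 difference of 1.04 with an SE of 0.11 and a 95% interval from 0.79 to 1.30 (limma, adjusted p = 4.59e-04), the smallest adjusted p among the 10 genes.

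The cyclase genes AOC1 (AT3G25760), AOC2 (AT3G25770) and AOC3 (AT3G25780) follow each other as neighbouring coding genes on chromosome 3 in assembly TAIR10.1. AOC3 read -1.31, -2.83, -2.21 and -1.46 in 35S:WIN1 and -4.72, -3.96, -5.12 and -4.35 in the control, with no overlap. AOC3 rose 5.996-fold, a log2 difference of 2.58 with an SE of 0.38 (adjusted p = 0.00180). Together with LOX4 it had the largest rise among the 10 genes.

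AOC2, the middle gene of the 3, read -1.90, -2.33, -0.62 and 1.04 in 35S:WIN1 and 0.32, -0.27, -0.86 and -0.77 in the control. Replicates 1 and 2 of 35S:WIN1 lay below all control arrays, replicate 4 above all and replicate 3 among them. AOC2 had a log2 difference of -0.56 with a 95% interval from -2.15 to 1.03 (adjusted p = 0.560), and without 35S:WIN1 replicates 1 and 2 it was 0.60 (adjusted p = 0.446).

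AOC1 was dim, and its signal stood well clear of background only on 3 of 4 control arrays and on 35S:WIN1 replicates 3 and 4. It read -8.05, -8.56, -5.31 and -4.72 in 35S:WIN1 and -5.65, -6.18, -6.83 and -7.69 in the control. AOC1 had a log2 difference of -0.07 with a 95% interval from -2.16 to 2.01 (adjusted p = 0.959). With dimmer values set to the detection floor of their array the difference was 0.72, so neither a size nor a direction can be given for AOC1.

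The ratio of AOC2 to AOC3 changed by -3.14 (SE 0.75), or 8.84-fold, with no overlap between groups (exact permutation p = 0.0286, adjusted p = 0.0429), and by -2.10 without 35S:WIN1 replicates 1 and 2. The neighbouring genes AOC2 and AOC3 therefore changed unequally on this measure. The ratio of AOC1 to AOC3 changed by -2.66 (SE 1.04, exact p = 0.0857, adjusted p = 0.110) and that of AOC1 to AOC2 by 0.49 (SE 0.43, exact p = 0.457, adjusted p = 0.457). Neither passed, and both rest in part on AOC1 values below background. With values raised to the detection floor both did, at -1.86 and 1.28 (adjusted p = 0.0321 each). That sets AOC1 to -6.36 and -6.74 on 35S:WIN1 replicates 1 and 2 and to -7.37 on control replicate 4. These are floors that differ between arrays, so no conclusion about AOC1 is drawn from these passes. The probes' sequences were not used here, and the cyclase genes are similar to each other, so a probe's signal may include that of a neighbouring copy.

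OPR3 (AT2G06050), the peroxisomal reductase whose loss makes Arabidopsis flowers male sterile, rose by a small margin. It read 2.97, 2.80, 3.27 and 3.28 in 35S:WIN1 and 2.42, 2.43, 2.35 and 2.87 in the control. Control replicate 4 overlapped the lowest array of 35S:WIN1, and the other control arrays lay below. OPR3 rose 1.48-fold, a log2 difference of 0.56 with an SE of 0.16 (limma, adjusted p = 0.0301). Leaving out 35S:WIN1 replicate 1, 3 or 4, or replicate 1, 2 or 3 of the control, ended this call (adjusted p = 0.0520 to 0.0787).

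JAR1 (AT2G46370), which makes the active conjugate, read 2.64, 2.52, 2.72 and 2.59 in 35S:WIN1 and 2.22, 2.52, 2.55 and 2.91 in the control. The 35S:WIN1 arrays all lay within the range of the control arrays. JAR1 had a log2 difference of 0.07 with a 95% interval from -0.27 to 0.40 (adjusted p = 0.754), or 0.83 to 1.32 times the control level.

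**Figure D3:**
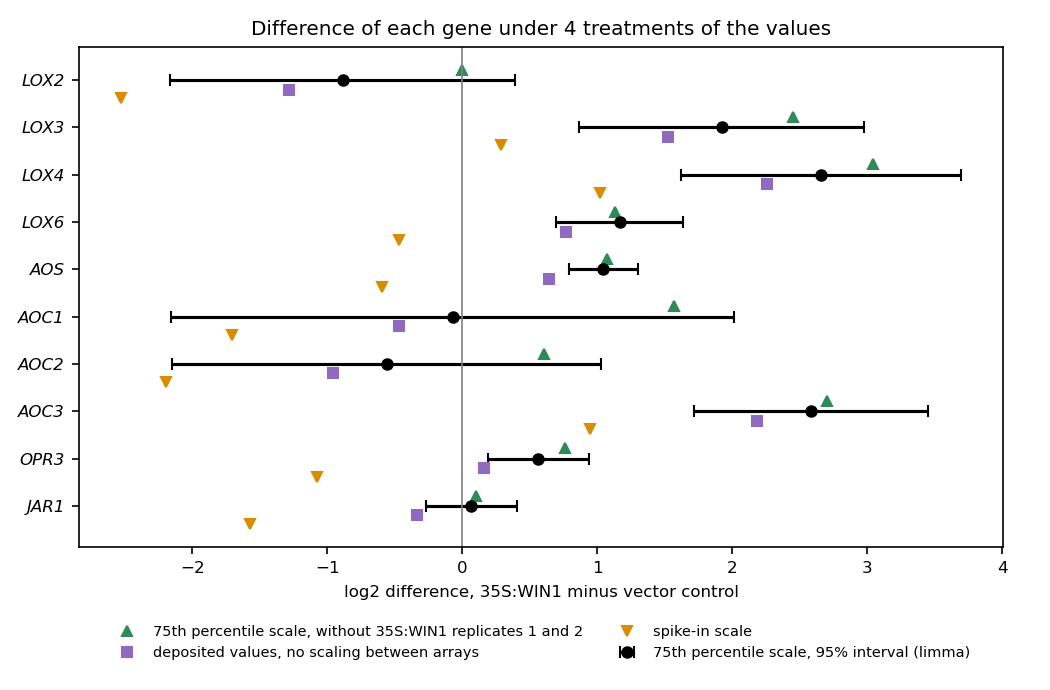
Log2 difference of each gene, 35S:WIN1 minus vector control, with the 95% interval of the limma fit on the 75th percentile scale (black), and the difference without 35S:WIN1 replicates 1 and 2 (green), on the deposited values (purple) and on the spike-in scale (orange). On the first scale 6 genes are higher, LOX4 and AOC3 lie above 0 by the widest margin, and LOX6, AOS, OPR3 and JAR1 fall below 0 on the spike-in scale.

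How far the rises hold depends on what the arrays are scaled to. On the deposited values LOX4 and AOC3 passed as higher, at 2.26 (adjusted p = 0.00816) and 2.18 (adjusted p = 0.00309), and LOX3, LOX6, AOS and OPR3 did not, at 1.52, 0.77, 0.64 and 0.16. The 8 spike-in RNAs well above background on all arrays were, relative to the 75th percentile, brighter in 35S:WIN1, with array medians of 2.78 to 4.39 against 1.56 to 2.78, and scaling to their median shifts every difference by -1.64. LOX4, AOC3 and LOX3 then stood at 1.02, 0.95 and 0.28 without passing, LOX6, AOS and OPR3 at -0.47, -0.59 and -1.08, and 0 genes of the 10 were higher. LOX2, AOC1, AOC2 and JAR1 were called lower on that scale, at -2.53, -1.71, -2.20 and -1.57, where the median of all genes was -1.68 and 86.0% of genes were called in either direction. The adjusted p there followed the size of the difference and did not weigh a gene's own spread. That of AOC1 was below that of JAR1 (limma, 0.00398 and 0.00724), although on the 75th percentile scale their SEs were 0.91 and 0.15. All counts of calls on the spike-in scale share this limit, and the call of AOC1 gives it no direction. The labelling reactions started from equal RNA, 1 µg each, and the amount of a transcript in a seedling is measured by neither scale.

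The genes also differed in how evenly they behaved among seedling samples. Between the lowest and highest 35S:WIN1 arrays AOS spanned 1.14-fold, JAR1 1.15-fold, LOX6 1.23-fold and OPR3 1.40-fold, and 92.7%, 91.7%, 79.1% and 55.6% of all genes tested had ranges at least as wide. LOX2 spanned 7.90-fold and AOC2 10.4-fold, which 2.04% and 1.41% of all genes matched or exceeded. AOC1 spanned 14.3-fold, but was well above background on only 2 of these arrays. Between control arrays AOS spanned 1.29-fold, JAR1 1.61-fold, LOX6 1.87-fold and OPR3 1.44-fold. There 59.0%, 25.2%, 15.2% and 38.2% of all genes had ranges at least as wide. LOX2 and AOC2 spanned 1.71-fold and 2.27-fold in the control. Replicates 3 and 4 of 35S:WIN1 lay above replicates 1 and 2 by 1.77 for LOX2 and 2.33 for AOC2 on the log2 scale, beside -0.01 for the median gene. The same step up was 1.05 for LOX3 and 0.77 for LOX4, but 0.23 for AOC3, 0.06 for AOS and -0.07 for LOX6. Since replicates 1 and 2 are also the dimmest arrays, brightness moves with this split, and its part was not tested. In the control, LOX3, LOX4, LOX6, OPR3 and JAR1 were all highest on replicate 4, the brightest control array, where AOC1 was lowest. Without that array LOX3, LOX4, LOX6 and OPR3 rose by 2.19, 3.002, 1.30 and 0.68, and all 6 genes passed.

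Counts of the following lists stand beside 15.1% of all genes higher and 20.2% lower on the 75th percentile scale. Of all genes, 402 of 20441 were higher and 17185 lower on the spike-in scale, and 905 of 20442 and 2088 on the deposited values. Without 35S:WIN1 replicates 1 and 2 these were 1951 and 2367 of 20440, and without replicate 4 they were 3707 and 4628 of 20441. Of 8 genes that supply linolenic acid, 6 were tested. On the 75th percentile scale 1 was higher and 2 lower, with a median difference of -0.30. On the spike-in scale 0 were higher and 5 lower, with a median of -1.93. FAD7 and FAD8, the chloroplast desaturases that form linolenic acid, fell by log2 differences of 1.01 (SE 0.19) and 1.89 (SE 0.34). AT1G02660 rose by 1.45 (SE 0.37). This call was lost without 35S:WIN1 replicates 1 and 2 (0.85, adjusted p = 0.0629) and on the spike-in scale, where it stood at -0.19. FAD3, the desaturase outside the chloroplast, had a difference of 0.22 (adjusted p = 0.230). The lipase genes DAD1 and DGL were well above background on 0 of 8 arrays and were not tested.

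Another 6 genes are relatives of the 10 and lie outside the rule. Of them 2 were higher and 0 lower on the 75th percentile scale, against 15.1% and 20.2% of all genes. On the spike-in scale 0 were higher and 4 lower, on the deposited values 1 was higher, and without 35S:WIN1 replicate 4 the counts were 2 and 2. LOX1, a lipoxygenase gene of another positional specificity that does not feed this route, rose by 2.74 (SE 0.38, adjusted p = 0.00141), but did not pass on the spike-in scale, where it stood at 1.10 (adjusted p = 0.0533). AOC4, the cyclase gene that lies away from the other 3, rose by 0.85 (SE 0.11, adjusted p = 0.00122), but was at -0.79 on the spike-in scale. LOX5 and OPR2 had differences of 0.47 and -0.47 and did not pass (adjusted p = 0.192 and 0.129).

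After OPR3 come 9 genes of transport and peroxisomal beta-oxidation. Of them 3 were higher and 1 lower (15.1% and 20.2% of all genes) on the 75th percentile scale, with a median of 0.24. On the spike-in scale 0 were higher and 6 lower, with a median of -1.40, and on the deposited values 1 was higher and 0 lower. OPCL1, the ligase that activates the reduced precursor with coenzyme A, rose 3.62-fold (log2 SE 0.24, adjusted p = 0.00106), and ACX1, an acyl-CoA oxidase gene of jasmonate synthesis, rose 2.52-fold (log2 SE 0.15, adjusted p = 6.32e-04). PED1, a thiolase gene, rose by 0.55 and KAT1, another thiolase gene, fell by 0.69. Without 35S:WIN1 replicates 1 and 2 KAT1 stood at -0.30 and did not pass (adjusted p = 0.247). On the spike-in scale OPCL1 stood at 0.22, ACX1 at -0.31 and PED1 at -1.08.

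Among genes of perception and turnover most passed as higher on the 75th percentile scale, against 15.1% of all genes. Of 13 genes of perception and repression 9 were higher and 1, JAZ4, lower, with a median of 1.15, or 4 and 5 on the spike-in scale and 4 and 1 on the deposited values. JAZ1, JAZ5, JAZ8 and JAZ10, repressors whose transcripts jasmonate induces, rose by 4.30, 4.40, 4.58 and 4.02, JAZ8 with 3 of 4 control arrays above background and 4.54 with the floor. COI1, the receptor gene, had a difference of -0.13 (adjusted p = 0.276) and is named although the naming rule did not pick it. Of 12 genes that oxidise, cleave or otherwise modify jasmonates 11 were tested, and 8 were higher and 1, AT2G38240, lower, with a median of 2.69, or 5 and 2 on the spike-in scale. With the mean over a gene's probes 9 were higher and 0 lower, with a median of 3.62. The lower call of AT2G38240 thus depends on the probe used. JRG21, named as a gene under jasmonate control, rose by 8.56 (SE 0.62), AT5G05600 by 3.95 (SE 0.29), ST2A, a sulfotransferase gene, by 4.49 (SE 0.32) and CYP94B2 by 4.02 (SE 0.31), the last pair above background on 3 and 2 of 4 control arrays.

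Regulators known to act on the synthesis genes moved both ways, 4 higher and 3 lower of 11, against 15.1% and 20.2% of all genes. Their median was -0.32, and the counts were 2 and 7 on the spike-in scale and 4 and 1 on the deposited values. MYC2, the central activator of jasmonate responses, rose by 2.02 (SE 0.28), and ORA47, an AP2/ERF activator of synthesis genes, by 4.40 (SE 0.49). JAV1 and WRKY51, which in Arabidopsis take part in a repressor complex on jasmonate synthesis, rose by 1.81 (SE 0.18) and 3.21 (SE 0.47), WRKY51 with 3 of 4 control arrays above background and 3.08 with the floor. The 3 that fell were TCP4, TCP3 and TCP10, by 0.90, 0.90 and 0.48, of the TCP class that is known in Arabidopsis to activate LOX2. These 3 were chosen after their values were seen, and TCP10 did not pass without 35S:WIN1 replicates 1 and 2 (-0.35, adjusted p = 0.136).

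Of 12 genes of touch and the early wound response 11 were higher and none lower, with a median of 3.21, against 15.1% of all genes higher. The count was 10 without 35S:WIN1 replicates 1 and 2. On the spike-in scale it was 7, where 402 of all 20441 genes were higher. The zinc finger gene ZAT10 rose by 4.88 (SE 0.195), and WRKY40, WRKY33 and WRKY53 by 5.73, 3.31 and 4.51. The summed level of the list, which weighs its brightest probes most, was 97.98 to 168 times the array's 75th percentile signal in 35S:WIN1. In the control it was 9.41 to 19.8 times. Its part in the rise of the synthesis genes was not tested.

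On the 75th percentile scale, where 35.3% of all genes were called, most markers of the tissues in a seedling did not pass the test. Every marker was above background on some array. Of 7 vascular genes 0 passed by limma and 0 had an unadjusted p under 0.05, and their summed level was 13.95 to 17.1 times the 75th percentile signal in 35S:WIN1 and 9.61 to 19.7 times in the control. Of 6 leaf mesophyll genes 2 were lower, CA1 by -2.07 and RCA by -0.43, with sums of 241.5 to 339.3 against 287.3 to 380.9. Without 35S:WIN1 replicates 1 and 2, CA1 stood at -1.085 and RCA, at -0.35, did not pass (adjusted p = 0.0958). Of 5 epidermis genes 1 was lower, PDF1 by -1.06, with sums of 27.5 to 37.6 against 24.6 to 32.2. Without those arrays PDF1 stood at -1.09 and did not pass (adjusted p = 0.0561). Of 9 root genes 3 were higher and 1 lower, with sums of 52.3 to 84.8 against 35.1 to 48.8. Sums of linear signals weigh the brightest probes most, and those of the root list were mostly PYK10. The 3 higher, RSL4, EXPA7 and PYK10, had differences of 1.05, 0.97 and 0.79. Without 35S:WIN1 replicates 1 and 2 none was called higher, with fewer arrays left, and these 3 stood at 1.01, 1.04 and 0.53. On the spike-in scale all 7 vascular, all 6 mesophyll and all 5 epidermis genes were called lower, as were 4 of the 9 root genes. There 17185 of all 20441 genes were called lower, with a median of -1.68. The part of tissue make-up in the differences was not tested.

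**Figure D4:**
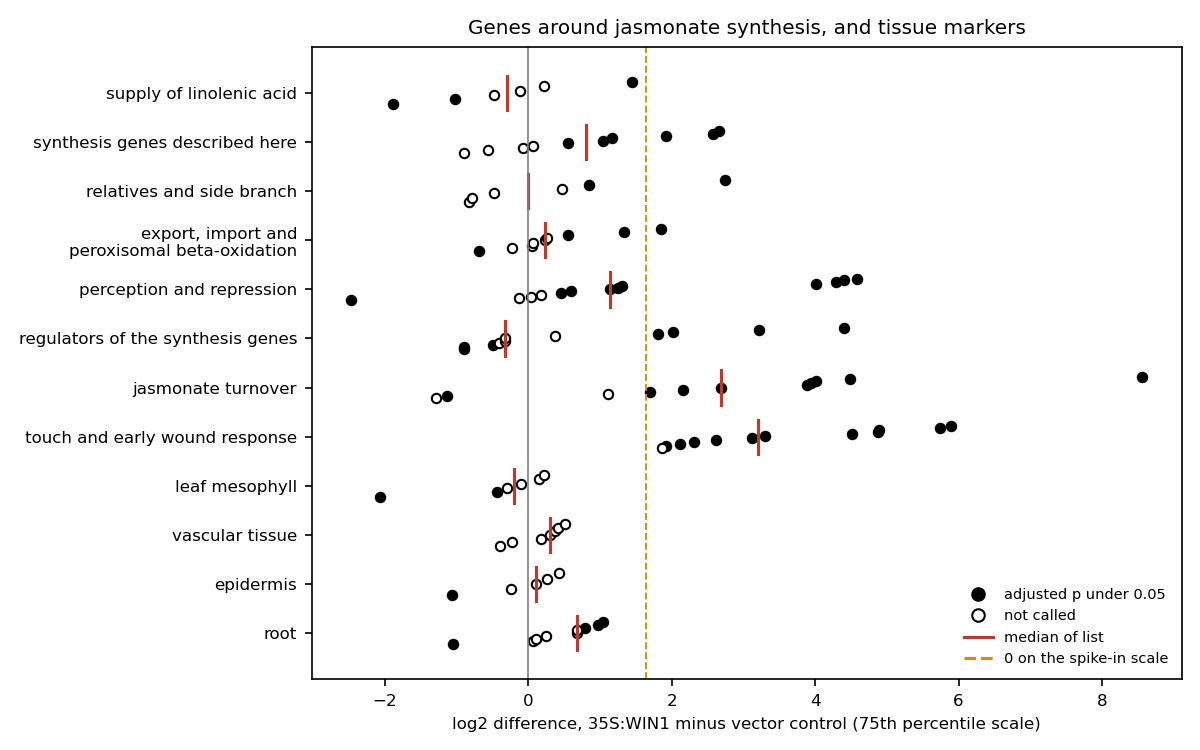
Log2 difference, 35S:WIN1 minus vector control on the 75th percentile scale, of every tested gene of the synthesis set, of 7 lists around it and of 4 tissue marker lists. Filled points passed an adjusted p of 0.05, open points did not, red lines are list medians, and the dashed line marks where 0 falls on the spike-in scale. Points lie farthest to the right for turnover, the JAZ genes and the touch and wound genes, and 3 of the 6 genes that rose in the synthesis set, LOX3, LOX4 and AOC3, lie beyond the dashed line.

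For 4 of the genes, the nearest profiles were sought among 18763 other genes measured on all 8 arrays, by the root mean square distance of log2 values after each gene's control mean was subtracted. For LOX3 they were UCP5, a mitochondrial carrier gene, at 0.26, AT1G56660 at 0.31, and OPCL1 at 0.36, the ligase gene of the same route. For LOX4 they were AT1G76600 and AT2G17660 at 0.40 and 0.41 and the zinc finger gene AZF2 at 0.41. AOS lay nearest to AT4G30350 at 0.09, HEI10 at 0.09 and WRKY15 at 0.11, and OPR3 to AT1G68330 at 0.10, PAO2, a polyamine oxidase gene, at 0.12 and CAD1, a phytochelatin synthase gene, at 0.12. The distances of LOX3 and LOX4 were larger than those of AOS and OPR3, whose own values vary less among arrays. The group difference stays in this distance, so near genes have a similar difference. It was 1.755, 1.663 and 1.857 for the 3 genes nearest LOX3, beside 1.92 for LOX3 itself. Whether near genes share a regulator was not tested.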

How the data were processed

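Total RNA of whole seedlings was labelled with Cy3, per the labels' protocols, and read on 1-colour Agilent arrays of 39102 spots with version 9.1.3.1 of Agilent Feature Extraction, as the submitters' processing notes give it. The processed signal is, per the file headers, a linear intensity after spatial detrending and background subtraction, not scaled between arrays. The deposited table of the series holds an intensity equal to it divided by a constant, 1340.6 on the 35S:WIN1 slide and 1311.9 on the control slide (to within 0.0137%), with column medians of 0.0464, 0.0588, 0.114 and 0.125 and of 0.0853, 0.111, 0.112 and 0.126. Its scale is linear, uncentred and unscaled between arrays of a slide, and the sources used here do not say why these constants were used.

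From the intensities, log2 values minus each array's 75th percentile over non-control spots were computed. Control spots and spots with outlier marks (at most 0.263% per array) were left out, spots of a probe averaged, and a locus was its probe with the highest mean. It was kept if at least 4 of 8 arrays read it well above background. No probe was saturated. Names came from assembly TAIR10.1, which held 20324 of the 20441 loci tested. No build is named in the files, so no coordinates are given. Two-sided tests used limma 3.58.1 in R 4.3.3, adjusted over all genes tested, and exact permutation tests SciPy 1.17.1. The fit was tested on simulated data. The files hold no mean spot signal, so normexp used the median.

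The members, lists and tests were chosen with earlier results of these data known. Named genes were the 10 members, WIN1, up to 4 genes with the smallest p in each list, and the 3 nearest profiles of LOX3, LOX4, AOS and OPR3. JAZ4, AT2G38240, TCP3, TCP4, TCP10, COI1, DAD1 and DGL fall outside this rule and were named after their values were seen. The sample titles gave groups and replicate numbers. Same-numbered arrays deviated together with r of -0.04, 0.06, 0.14 and 0.04. This gave no sign that the numbers pair the samples, but cannot exclude it, and the main fit used no pairing. Arrays of one group correlated at 0.948 to 0.987. Precision is limited by the number of arrays. Alternatives covered scaling, background correction, filters, variance models, a replicate block and left-out arrays.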

Additional observations from a re-analysis of the deposited data

Results flagged for a closer look

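One array stood far from its group. OPR3 was at 2.87 on vector control replicate 4, and its gap to the nearest control array was 0.845 of the group's whole range, above Dixon's 95% critical value for 4 samples. It was the only one of 20 groups of 4 arrays tested, and chance marks about 1 in 20. Without that array OPR3 was higher in 35S:WIN1 by 0.68 (limma, adjusted p = 0.0149).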

How the results depend on the processing

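Over 22 alternatives, LOX4 and AOC3 passed as higher in all but the spike-in scale (log2 differences 1.02 to 3.04 and 0.95 to 2.88), LOX3, LOX6 and AOS in 20, and OPR3 in 14. Of the 10 genes, 2 passed on the deposited values (both higher) and 4 on the spike-in scale (all lower), where LOX6 was at -0.47, AOS at -0.59, OPR3 at -1.08 and JAR1 at -1.57. JAR1 was at -0.33 on the deposited values. AOC1 turned to 0.51 with normexp, 0.72 with the detection floor, 0.16 with array weights and 1.57 once the 2 dimmest arrays were left out, and AOC2 to 0.60 without those arrays. Leaving out each replicate gave -0.72 to 0.56 for AOC1 and -0.043 to 0.19 for JAR1, and 5 or 6 members called, among them LOX2 as lower without 35S:WIN1 replicate 4. All genes called numbered 17587 on the spike-in scale, 2993 on the deposited values and 4318 without the 2 dimmest arrays. Of the 9 pairs 6 passed, and 0 with normexp, where 5 kept the lowest p of the exact test, too few to pass after adjustment. Apart from that effect of the adjustment, the cause of these changes was not tested. No pair changed direction with normexp, the detection floor, outlier spots kept or arrays left out. The fit with a replicate block called the same 6 members, with LOX4 at an adjusted p of 0.00323, although same-numbered arrays gave no sign of pairing. Within the replicate block the pair tests cannot go below a p of 0.125. A slide block could not be fitted, since each slide holds 1 group. Of the lists' genes, 3 were too dim to test.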
